A study of Mus musculus with 24 samples.

Results

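The G1 cyclins Ccnd1, Ccnd2, Ccnd3, Ccne1 and Ccne2, their kinases Cdk2, Cdk4 and Cdk6, and the transcription factors E2f1 and E2f2 were followed through sorted blood cell populations of mouse bone marrow. These 10 genes were taken by symbol, with every probe set annotated to that symbol alone, from a total of 18194 genes measured by 34958 such probe sets on Affymetrix expression arrays. They were represented by 29 probe sets, and 26 of these passed a filter on low values, under which at least 2 of the 13 arrays had to reach 4.64, the median of all log2 values. Each of the 10 genes kept at least 1 probe set and was tested, and the 3 probe sets that did not pass, for Ccnd2, Cdk2 and E2f1, reached that level on 0 arrays.

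Cells enter the division cycle in G1. D-type cyclins, whose transcription follows growth factor signals, activate Cdk4 and Cdk6, which phosphorylate the retinoblastoma protein and so free E2f transcription factors. E2f1 and E2f2 then switch on genes of DNA replication together with the E-type cyclins, which activate Cdk2 and carry the cell into S phase. Adult blood stem cells are mostly quiescent, whereas lineage progenitors in the marrow divide often, and the D-type cyclins and E2f family members are used to different degrees in different blood lineages.

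The populations came from 129ola mice aged 8 to 12 weeks. The arrays comprised 2 of B cell progenitors from wildtype mice, 3 of myeloid progenitors (MP) from Dnmt1 hypomorph mice, 3 of MP from wildtype mice, 3 of haematopoietic stem cells (HSC) from hypomorph mice and 2 of HSC from wildtype mice. Hypomorphs were Dnmt1-/chip, a null allele over an allele of reduced function of the maintenance DNA methyltransferase, and wildtypes were Dnmt1+/+. These are germline alleles, so the marrow around the sorted cells carried them too, and B cell progenitors were measured in the wildtype alone. Each RNA came from 35000 to 100000 sorted cells. Nothing in the labels ties the arrays of a group to different mice. The p-values therefore cover array-to-array spread, which may be technical, and the number of arrays limits the precision.

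Array medians lay between 4.56 and 4.74 on the log2 scale. Dnmt1 itself was lower in the hypomorph, by a log2 fold of -2.75 in HSC (SE 0.24) and -3.34 in MP (SE 0.22), and its hypomorph and wildtype arrays did not overlap. The populations carried the markers of their labels. The mean level over 11 B lineage markers was 11.24 to 11.28 in the B progenitor arrays and at most 5.29 in the other arrays, and that over 11 myeloid progenitor markers was 11.56 to 11.70 in hypomorph MP and 11.54 to 11.62 in wildtype MP. The mean over 11 stem cell markers was 8.83 to 9.11 in hypomorph HSC and 9.56 to 9.72 in wildtype HSC. Markers of other cells also differed between the HSC of the 2 genotypes. All 7 tested mast cell and basophil markers were called higher in the hypomorph, with a mean level of 7.16 to 8.06 in hypomorph HSC and 4.54 to 4.90 in wildtype HSC. These markers were not particular to hypomorph HSC. Their mean level was 9.82 to 10.14 in hypomorph MP, 9.31 to 9.58 in wildtype MP and 3.95 to 4.14 in B progenitors. Also called higher in hypomorph HSC were 3 of 11 myeloid, 3 of 9 erythroid and 2 of 4 T and NK cell markers. Of all genes tested, 5.37% were called higher there and 5.44% lower. Of 11 stem cell markers 1 was called higher and 3 lower, of 11 B lineage markers 0 higher and 2 lower, and of 5 macrophage and stroma markers 0 higher and 1 lower. In bulk samples of this kind, fewer cells of a type and less RNA per cell cannot be told apart.

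All values below are log2 intensities on the first normalization of the 13 arrays, and a probe set is compared only with itself across groups, since probe sets differ in brightness. One limma model of the 5 groups was fitted to 12765 genes, each represented by its brightest probe set past the filter, and a gene is called when its Benjamini-Hochberg adjusted p lies under 0.05. The wildtype HSC arrays enter the comparisons of hypomorph HSC, wildtype MP and B progenitors, each over wildtype HSC. They also enter the difference between the HSC and the MP genotype effect. All these comparisons share the error of those arrays and are given side by side.

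In hypomorph HSC 5 of the 10 genes were higher than in wildtype HSC and 0 were lower. They were Ccnd1, Ccne1, Ccne2, E2f1 and E2f2. Over all genes tested, 5.37% were called higher and 5.44% lower. The count of 5 was 3 under 6 of 10 other settings, 1 with the HSC arrays alone, and 2 to 4 with an array left out. The median log2 fold change was 0.83 over the 10 genes and -0.11 over all genes. In MP the same genotype comparison called 1 of the 10 genes, Ccnd1, which was higher, and over all genes 0.337% were called higher and 0.251% lower, with medians of -0.24 for the 10 genes and -0.02 for all genes. The difference between the HSC and the MP effect was called for 1 of the 10 genes, Ccne2, against 5.64% of all genes in either direction.

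Between the populations, wildtype MP had 3 of the 10 genes higher than wildtype HSC (Ccne1, Ccne2 and Cdk6) and 1 lower (Ccnd2), with 13.8% of all genes higher and 18% lower. In the hypomorph 1 gene was higher in MP than in HSC, Cdk6, and 0 were lower, where 4.18% of all genes were higher and 7.47% lower. B progenitors over wildtype HSC had 5 genes higher (Ccnd3, Ccne1, Ccne2, Cdk2 and E2f2) and Ccnd2 lower, with 14.9% of all genes higher and 30.2% lower. B progenitors over wildtype MP had 4 genes higher (Ccnd3, Ccne1, Ccne2 and E2f2) and 2 lower (Ccnd2 and Cdk6), with 11.2% of all genes higher and 24.7% lower. Centring the arrays on their medians added 0.13 to every log2 fold change of wildtype MP over wildtype HSC and 0.16 to those of B progenitors over HSC, and changed the call of 0 of the 10 genes. It changed the split over all genes. In wildtype MP over HSC 2091 of 3857 calls were higher after centring, against 1757 of 4056 without it. For B progenitors over HSC these were 2249 of 5574 after centring and 1896 of 5751 without it. For hypomorph over wildtype HSC they were 775 of 1316 and 686 of 1380.

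**Figure D1:**
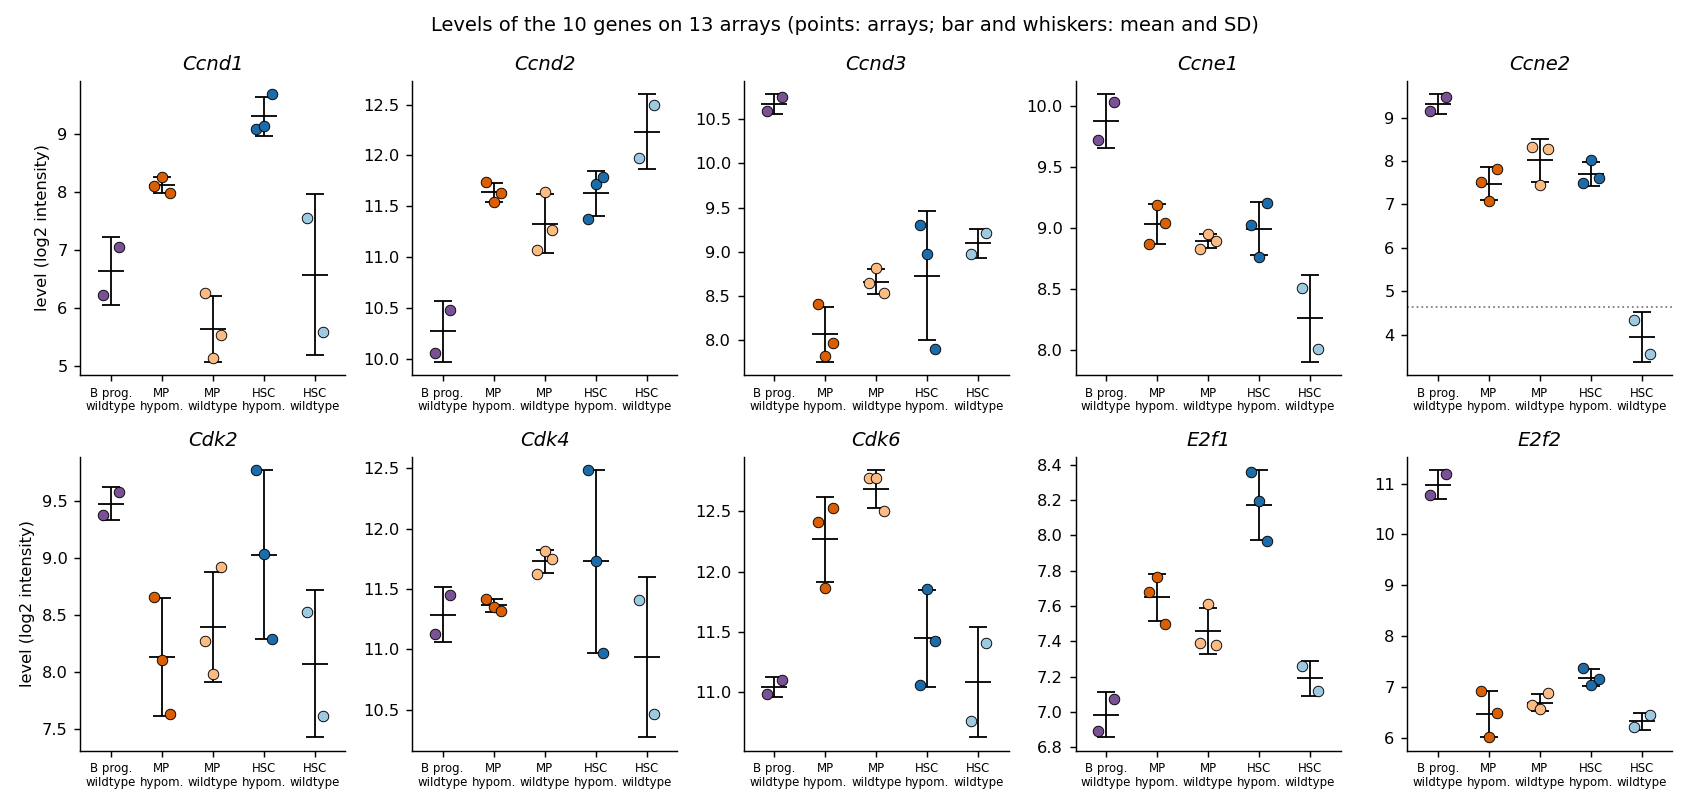
Level of the representative probe set of each gene (log2 intensity, y axis) on every array, by population and genotype; points are arrays, and bars with whiskers are group means with SD. Ccne2 lies between 3.54 and 4.34 in wildtype HSC and at 7.08 or more on all other arrays, and E2f2 lies at 10.78 and 11.18 in B progenitors and at 7.37 or less elsewhere.

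The 300 bases around the start of a gene, 250 before and 50 after, were available from RefSeq (GRCm38.p6) for 7 of the 10 genes, in 9 windows. Of these, 2 windows, 1 of E2f2 and 1 of Cdk2, held an E2f motif as spelled out below, and the 7 others, including all those of Cdk4, Cdk6 and E2f1, held 0. Any other starts of these genes, E2f1 among them, were not searched. A count of 0 thus covers the window given and not every promoter of the gene. Shown here are those of 4 genes called higher in B progenitors than in wildtype HSC by their representative probe sets. They are E2f2, the E-type arm Ccne1 and Cdk2, and the D-type cyclin Ccnd3. A further Ccnd3 probe set was called lower there, as given below. Capitals mark a match to the E2f motifs TTTCCCGC, TTTCGCGC, TTTGCCGC and TTTGGCGC, searched on both strands, none of which contains another.
E2f2: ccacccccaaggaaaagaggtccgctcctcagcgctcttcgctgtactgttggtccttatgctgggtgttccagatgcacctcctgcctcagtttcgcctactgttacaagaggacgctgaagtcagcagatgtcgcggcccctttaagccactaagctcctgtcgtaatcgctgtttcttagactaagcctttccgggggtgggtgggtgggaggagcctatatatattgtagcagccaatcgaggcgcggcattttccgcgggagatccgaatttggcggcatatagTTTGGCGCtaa
Cdk2: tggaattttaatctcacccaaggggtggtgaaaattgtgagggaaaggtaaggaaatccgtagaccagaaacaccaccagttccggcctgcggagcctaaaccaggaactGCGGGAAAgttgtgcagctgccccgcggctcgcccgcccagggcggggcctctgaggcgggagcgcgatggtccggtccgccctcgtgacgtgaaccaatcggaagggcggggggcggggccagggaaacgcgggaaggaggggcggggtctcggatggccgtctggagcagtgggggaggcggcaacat
Ccne1: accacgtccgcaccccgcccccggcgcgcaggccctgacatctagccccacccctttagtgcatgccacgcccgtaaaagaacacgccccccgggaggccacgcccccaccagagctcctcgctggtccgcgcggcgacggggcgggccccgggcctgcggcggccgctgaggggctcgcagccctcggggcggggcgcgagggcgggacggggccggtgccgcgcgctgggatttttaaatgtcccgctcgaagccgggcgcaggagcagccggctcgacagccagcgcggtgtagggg
Ccnd3: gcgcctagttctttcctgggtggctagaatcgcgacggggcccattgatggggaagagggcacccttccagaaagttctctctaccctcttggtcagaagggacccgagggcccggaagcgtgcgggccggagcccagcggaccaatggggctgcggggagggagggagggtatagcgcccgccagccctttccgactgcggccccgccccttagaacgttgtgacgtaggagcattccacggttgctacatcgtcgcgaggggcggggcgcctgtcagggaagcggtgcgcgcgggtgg
The E2f2 window shown (chr4:136172024-136172323, plus strand) held 1 match, 39 bases after the annotated start, and the second E2f2 window (chr4:136180532-136180831, 7 CpG) held 0. The Cdk2 window (chr10:128705002-128705301, minus strand) held 1 match in the reverse orientation, 140 bases before the start. The windows of Ccne1 (chr7:38107441-38107740, minus strand) and Ccnd3 (chr17:47593217-47593516, plus strand, the one of its 2 windows with more CpG) held none of these letters. Of 32851 windows of all genes 2.26% held a match, and of 21263 windows of protein-coding genes 2.85%. The windows shown held 18 CpG in E2f2, 25 in Cdk2, 41 in Ccne1 and 28 in Ccnd3, against a median of 13 over protein-coding windows. Methylation was not measured on these arrays, and a match is a run of letters and not a binding site.

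Ccnd1 encodes cyclin D1, which is widely used outside the blood system. Its level was 6.23 and 7.06 in B progenitors. It was 8.11, 8.26 and 7.98 in hypomorph MP, against 6.27, 5.15 and 5.53 in wildtype MP. It was 9.09, 9.14 and 9.68 in hypomorph HSC, against 7.56 and 5.60 in wildtype HSC. Every hypomorph array thus lay above every wildtype array, and the 2 wildtype HSC arrays stood far apart. Ccnd1 was 6.61-fold higher in hypomorph than in wildtype HSC (log2 fold change 2.73, SE 0.47, limma adjusted p = 0.00296) and 5.53-fold higher in hypomorph than in wildtype MP (2.47, SE 0.42, limma adjusted p = 0.0124). The effects in HSC and MP differed by 0.26 (95% interval -1.10 to 1.62, limma adjusted p = 0.835), an interval that leaves room for a difference in either direction. Of the 10 genes Ccnd1 was the one called in both cell types.

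The 3 probe sets of Ccnd1 ran the same way. In the fit of every probe set (22122 tested, 4.86% called higher in hypomorph HSC and 0.235% in hypomorph MP) all 3 were called higher in hypomorph HSC, at log2 fold changes of 1.62 to 2.73, and 2 were called higher in hypomorph MP. For the third, 1417419_at, the MP log2 fold change was 1.81 (limma adjusted p = 0.0737). The tightest was 1448698_at, at 7.23, 7.35 and 7.23 in hypomorph MP against 5.73, 5.76 and 5.43 in wildtype MP, and at 9.18, 8.65 and 8.46 in hypomorph HSC against 7.05 and 7.01 in wildtype HSC. Between populations this probe set also placed MP and B progenitors below HSC, where 13.7% of all probe sets were called lower in wildtype MP, 5.09% in hypomorph MP and 24.2% in B progenitors. Its log2 fold change was -1.39 for wildtype MP over wildtype HSC (limma adjusted p = 0.000846), -1.49 for the same step in the hypomorph (0.000525) and -1.94 for B progenitors over wildtype HSC (4.95e-05). The brighter probe set 1417420_at, whose wildtype HSC arrays were far apart, gave -0.93 (0.151), -1.19 (0.0927) and 0.07 (0.931) for these comparisons. Averaging the 3 probe sets of Ccnd1 turned the last value to -1.02 (limma adjusted p = 0.0108), so the direction of Ccnd1 in B progenitors over HSC rests on the choice of probe set.

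Without the lower of the wildtype HSC arrays (replicate 2), the HSC effect on Ccnd1 was 1.75 and still called (limma adjusted p = 0.0404), and wildtype MP over HSC became -1.91 and was called (0.00761). With the model restricted to the 5 HSC arrays, the HSC effect on Ccnd1 was not called (adjusted p = 0.071). In MP the call of Ccnd1 was lost without hypomorph replicate 1 (0.0595), hypomorph replicate 2 (0.0741) or wildtype replicate 3 (0.0733), at log2 fold changes that stayed positive.

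Ccnd2 encodes cyclin D2. Its representative probe set read 10.06 and 10.48 in B progenitors, below all other arrays. In MP it read 11.73, 11.54 and 11.63 in the hypomorph and 11.07, 11.64 and 11.27 in the wildtype, and in HSC 11.37, 11.72 and 11.79 in the hypomorph and 11.97 and 12.49 in the wildtype. Wildtype HSC were thus highest and B progenitors lowest, with the other groups overlapping between them. Ccnd2 was 3.89-fold lower in B progenitors than in HSC (log2 fold change -1.96, SE 0.27, limma adjusted p = 4.21e-05) and 2.08-fold lower than in MP (-1.06, SE 0.24, 0.00354). All 6 tested probe sets of Ccnd2 were called lower in B progenitors than in wildtype MP, at -1.06 to -2.73, where 20.4% of all probe sets were called lower, and 5 of 6 were called lower than in wildtype HSC, where 24.2% were.

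The probe sets of Ccnd2 did not run together between MP and HSC. In wildtype MP the representative probe set was 1.87-fold lower than in wildtype HSC (log2 fold change -0.90, SE 0.24, limma adjusted p = 0.0123), but of the 6 probe sets 2 were called lower and 1, 1416123_at, was called higher (1.13, limma adjusted p = 0.0131), where 13.7% of all probe sets were lower and 13% higher. Averaged over its probe sets Ccnd2 gave -0.29 (0.317), and without wildtype HSC replicate 2 the representative gave -0.64 (0.139), neither of them called, and without MP wildtype replicate 1 the adjusted p was 0.0559. By genotype Ccnd2 gave -0.60 (SE 0.24, limma adjusted p = 0.129) in HSC and 0.31 (SE 0.22, 0.517) in MP, neither called. Without B progenitor replicate 1 the change of Ccnd2 in B progenitors over MP was -0.85 and not called (0.0577), and averaged over its probe sets it was -1.75.

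Ccnd3 encodes cyclin D3, which developing lymphocytes are known to depend on. It read 10.60 and 10.75 in B progenitors, above every other array. In MP it read 8.42, 7.82 and 7.97 in the hypomorph and 8.64, 8.81 and 8.53 in the wildtype, and in HSC 9.30, 8.98 and 7.91 in the hypomorph and 8.98 and 9.21 in the wildtype. Ccnd3 was 4.02-fold higher in B progenitors than in wildtype MP (log2 fold change 2.01, SE 0.33, limma adjusted p = 0.000286) and 2.98-fold higher than in wildtype HSC (1.58, SE 0.36, 0.00275). By genotype it was not called, at -0.37 (SE 0.33, limma adjusted p = 0.526) in HSC and -0.59 (SE 0.30, 0.362) in MP.

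The probe sets of Ccnd3 did not run together. A second one, 1444323_at, read 7.53 and 6.57 in B progenitors against 5.80 and 5.86 in wildtype HSC and was also called higher over HSC (log2 fold change 1.22, limma adjusted p = 0.00876), as were 17.2% of all probe sets. The remaining one, 1438805_at, read 5.76 and 6.87 in B progenitors against 8.04 and 7.85 in wildtype HSC, a fall of the opposite sign (-1.63, limma adjusted p = 0.0044), and it gave -1.32 for wildtype MP over HSC (0.0152), also called. Averaged over its probe sets Ccnd3 was 0.39 in B progenitors over HSC and not called (0.172), and 1.07 over MP and still called. The files do not say which transcripts each probe set reads.

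**Figure D2:**
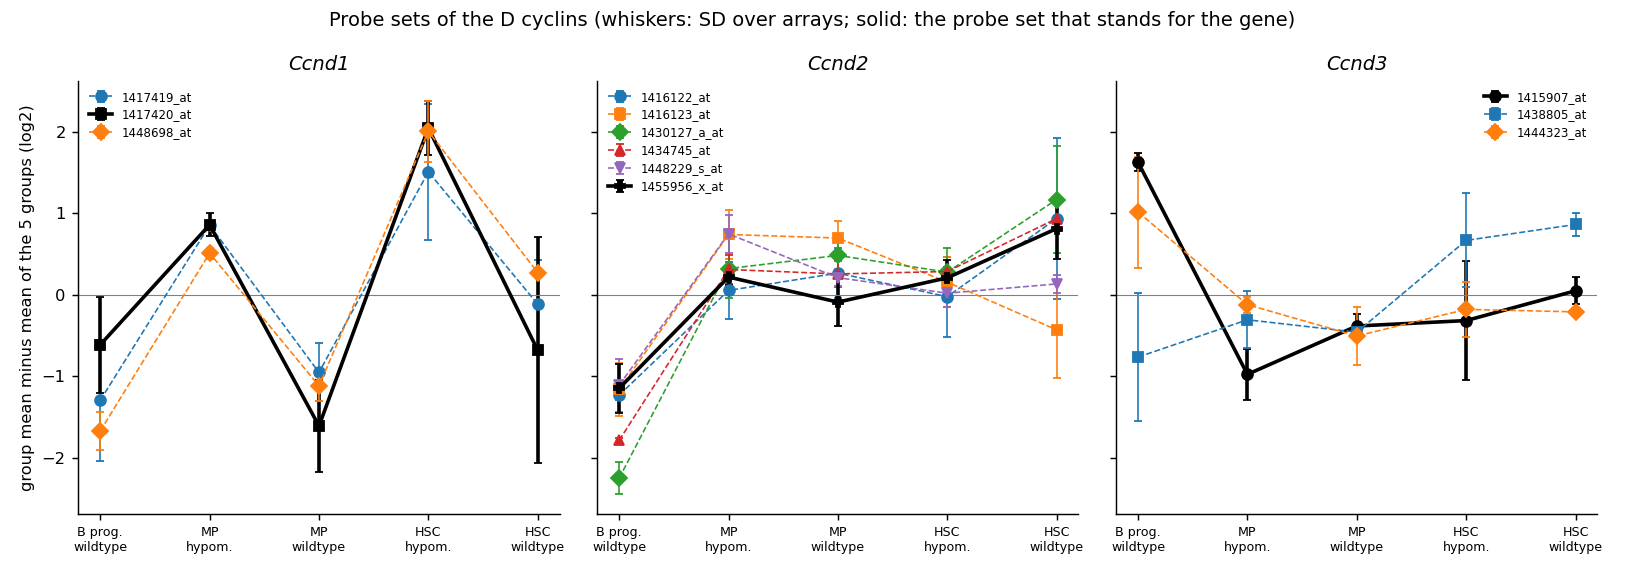
Group mean minus the mean of the 5 groups (log2, y axis) for the probe sets of the 3 D-type cyclins, by population and genotype; whiskers are SD over arrays, and the solid line is the probe set that stands for the gene. The Ccnd1 lines are higher in each hypomorph group than in its wildtype, the lines of all tested Ccnd2 probe sets are lower in B progenitors than in MP, and the Ccnd3 lines part in B progenitors.

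Of the kinases that D-type cyclins activate, Cdk6 differed between the populations and the representative probe set of Cdk4 was called in 0 of the 7 comparisons. Cdk6, prominent in blood stem and progenitor cells, read 10.98 and 11.10 in B progenitors. In MP it read 12.42, 11.86 and 12.53 in the hypomorph and 12.78, 12.77 and 12.51 in the wildtype. In HSC it read 11.06, 11.85 and 11.42 in the hypomorph and 10.76 and 11.41 in the wildtype. All 6 MP arrays lay above all HSC and B progenitor arrays. Cdk6 was 3.04-fold higher in wildtype MP than in wildtype HSC (log2 fold change 1.60, SE 0.28, limma adjusted p = 0.000793) and 3.13-fold lower in B progenitors than in wildtype MP (-1.65, SE 0.28, 0.000382). In the hypomorph MP exceeded HSC 1.77-fold (0.82, SE 0.25, limma adjusted p = 0.0494), a call lost under 6 of 10 other settings and without 9 of the 13 arrays in turn, and at 0.54 with array weights. A further probe set, 1435338_at, gave 2.11 for wildtype MP over HSC (limma adjusted p = 0.000697) and -2.25 for B progenitors over MP (0.00022). By genotype Cdk6 gave 0.36 (SE 0.28, limma adjusted p = 0.453) in HSC and -0.42 (0.445) in MP.

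Cdk4, the other kinase of the D-type cyclins, had the narrowest spread of group means, 0.79. It read 11.13 and 11.45 in B progenitors, and in MP 11.42, 11.35 and 11.32 in the hypomorph and 11.62, 11.81 and 11.75 in the wildtype. Hypomorph HSC read 12.48, 11.73 and 10.97 and wildtype HSC 11.41 and 10.47, so each HSC group spanned more than the distance between the HSC means. The log2 fold change of Cdk4 in hypomorph over wildtype HSC was 0.79 (SE 0.36, limma adjusted p = 0.18), and without hypomorph HSC replicate 3 it was 1.17 and called (0.0286). A second Cdk4 probe set, 1422439_a_at, was called higher in wildtype MP than in wildtype HSC (1.03, limma adjusted p = 0.0369), where the representative gave 0.79 (0.111).

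Ccne2, cyclin E2, had the widest range of group means of the 10 genes, 5.37. Its single probe set read 9.15 and 9.47 in B progenitors. MP read 7.53, 7.08 and 7.83 in the hypomorph and 8.32, 7.44 and 8.29 in the wildtype. Hypomorph HSC read 7.50, 8.02 and 7.61, against 4.34 and 3.54 in wildtype HSC. Both wildtype HSC values lay below the median of all values, so the size of a fold change against them depends on how dim signals are scaled. Hypomorph HSC lay within the range of the MP arrays, and wildtype HSC lay below every other array. Ccne2 was 13.6-fold higher in hypomorph than in wildtype HSC (log2 fold change 3.76, SE 0.33, 95% interval 3.06 to 4.47, limma adjusted p = 2.73e-05). In MP the genotype effect was -0.54 (SE 0.29, limma adjusted p = 0.40), and the HSC effect exceeded it by 4.30 (SE 0.44, 95% interval 3.36 to 5.25, 0.000323). These calls of Ccne2 held under all 10 other settings and with each of the 13 arrays left out, where the HSC effect ranged between 3.36 and 4.16.

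Across the populations Ccne2 was 16.9-fold higher in wildtype MP than in wildtype HSC (log2 fold change 4.07, SE 0.33, limma adjusted p = 1.19e-06) and 41.3-fold higher in B progenitors than in wildtype HSC (5.37, SE 0.36, 5.66e-08). In the hypomorph the log2 fold change of MP over HSC was -0.23 (SE 0.29, 95% interval -0.86 to 0.40, limma adjusted p = 0.733). B progenitors exceeded wildtype MP 2.45-fold (1.29, SE 0.33, limma adjusted p = 0.00667). That call of Ccne2 was lost without B progenitor replicate 2 (1.13, 0.0605).

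Ccne1, cyclin E1, moved over a smaller range. It read 9.72 and 10.03 in B progenitors, above all other arrays. MP read 8.87, 9.20 and 9.04 in the hypomorph and 8.83, 8.95 and 8.90 in the wildtype. Hypomorph HSC read 9.03, 8.77 and 9.20 and wildtype HSC 8.51 and 8.01, the lowest of all arrays. Ccne1 was 3.06-fold higher in B progenitors than in wildtype HSC (log2 fold change 1.61, SE 0.24, limma adjusted p = 9.16e-05) and 1.98-fold higher than in wildtype MP (0.98, SE 0.22, 0.0029), and its second probe set was called in both comparisons too (1.44 and 1.20), with 13% of all probe sets called higher in B progenitors than in MP. The smaller differences of Ccne1 lay at the threshold. It was 1.66-fold higher in hypomorph than in wildtype HSC (0.74, SE 0.22, limma adjusted p = 0.047), a call lost under 8 of 10 other settings and without 10 of the 13 arrays in turn, and the second probe set gave 0.38. It was 1.55-fold higher in wildtype MP than in wildtype HSC (0.63, SE 0.22, limma adjusted p = 0.0418), a call lost under 6 of 10 settings and without 7 of the 13 arrays. Without wildtype HSC replicate 2 the HSC genotype effect on Ccne1 was 0.48 (adjusted p = 0.385).

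Cdk2, the kinase that E-type cyclins activate, read 9.37 and 9.58 in B progenitors. MP read 8.66, 8.11 and 7.63 in the hypomorph and 8.27, 7.98 and 8.92 in the wildtype, and HSC read 9.76, 9.03 and 8.29 in the hypomorph and 8.53 and 7.62 in the wildtype. The groups formed a chain in which each overlapped its neighbour in the order of means. The called difference was that of B progenitors over wildtype HSC, 2.64-fold (log2 fold change 1.40, SE 0.47, limma adjusted p = 0.0251). It was lost for Cdk2 under array weights (0.0928) and without HSC wildtype replicate 2 (0.94, 0.208), B progenitor replicate 1 (0.0705) or B progenitor replicate 2 (0.111). In hypomorph over wildtype HSC Cdk2 gave 0.95 (SE 0.43, 95% interval 0.03 to 1.87, limma adjusted p = 0.175), and B progenitors over wildtype MP gave 1.08 (0.064).

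**Figure D3:**
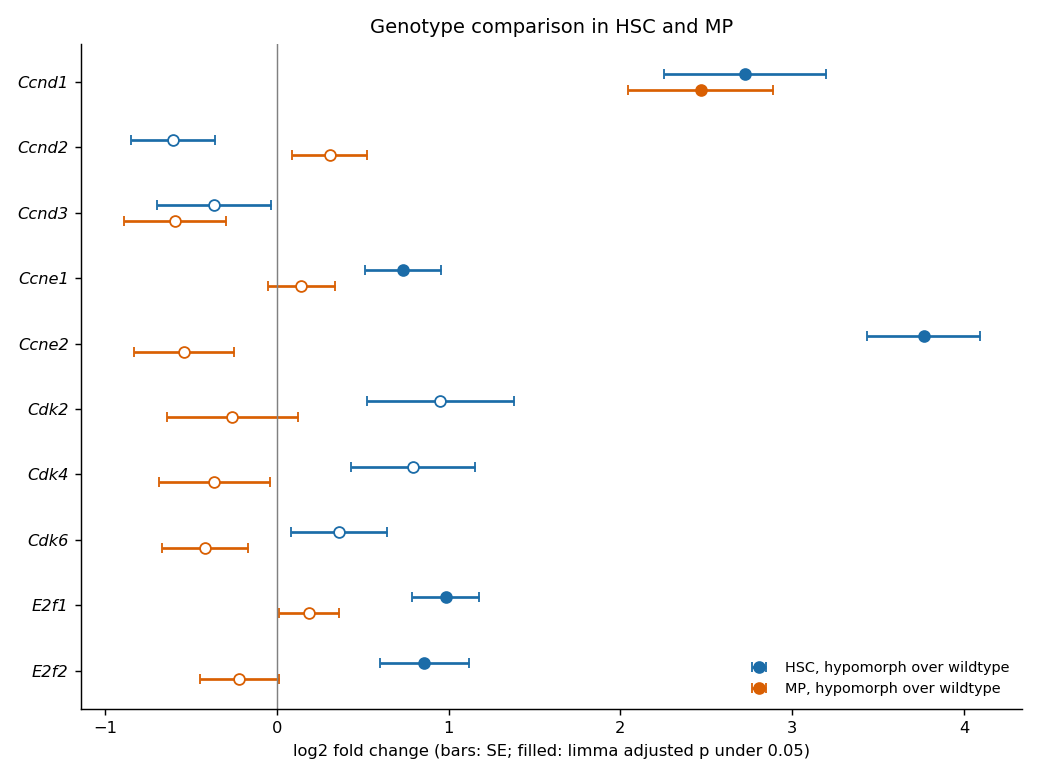
Log2 fold change of hypomorph over wildtype (x axis) for the 10 genes in HSC and in MP; bars are SE and filled points passed a limma adjusted p under 0.05. Ccnd1 lies at 2.73 in HSC and 2.47 in MP, and Ccne2 lies at 3.76 in HSC and -0.54 in MP.

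E2f1 and E2f2, both activator members of the E2f family, ordered the populations differently. E2f1 read 6.89 and 7.07 in B progenitors, the lowest of all arrays. In MP it read 7.68, 7.77 and 7.50 in the hypomorph and 7.39, 7.61 and 7.38 in the wildtype, and in HSC 8.36, 8.19 and 7.97 in the hypomorph and 7.26 and 7.12 in the wildtype. Hypomorph HSC were the highest group and stood apart from the others. E2f1 was 1.98-fold higher in hypomorph than in wildtype HSC (log2 fold change 0.98, SE 0.20, limma adjusted p = 0.00693). The call of E2f1 was lost without wildtype HSC replicate 2 (0.91, 0.0664) and with the model restricted to the 5 HSC arrays (0.107). In MP E2f1 gave 0.19 (limma adjusted p = 0.63), and the difference of the effects was 0.79 (0.0917). A second probe set of E2f1, 1417878_at, gave 0.81 in HSC (0.0898) and was called lower in B progenitors than in wildtype MP (-0.94, 0.0178), where the representative gave -0.48 (0.0753).

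E2f2 read 10.78 and 11.18 in B progenitors and between 6.01 and 7.37 on the 11 other arrays. It was 25.2-fold higher in B progenitors than in wildtype HSC (log2 fold change 4.66, SE 0.28, limma adjusted p = 2.38e-08) and 19.5-fold higher than in wildtype MP (4.29, SE 0.26, 1.75e-08). Its second probe set, at 9.71 and 9.73 in B progenitors against at most 4.91 in wildtype MP and 5.37 in wildtype HSC, gave 5.07 and 4.57. Both probe sets thus placed B progenitors apart from all myeloid and stem cell arrays. Within HSC E2f2 read 7.37, 7.03 and 7.15 in the hypomorph against 6.21 and 6.44 in the wildtype, a 1.81-fold difference (0.86, SE 0.26, limma adjusted p = 0.0493). This call of E2f2 was lost under 8 of 10 other settings and without 11 of the 13 arrays in turn, and the second probe set gave 0.48. In MP E2f2 gave -0.22 (0.678), and the difference of the effects was 1.08 (0.0842). The second probe set of E2f2 had the opposite sign in both, at 0.67 in MP and -0.18 for the difference.

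**Figure D4:**
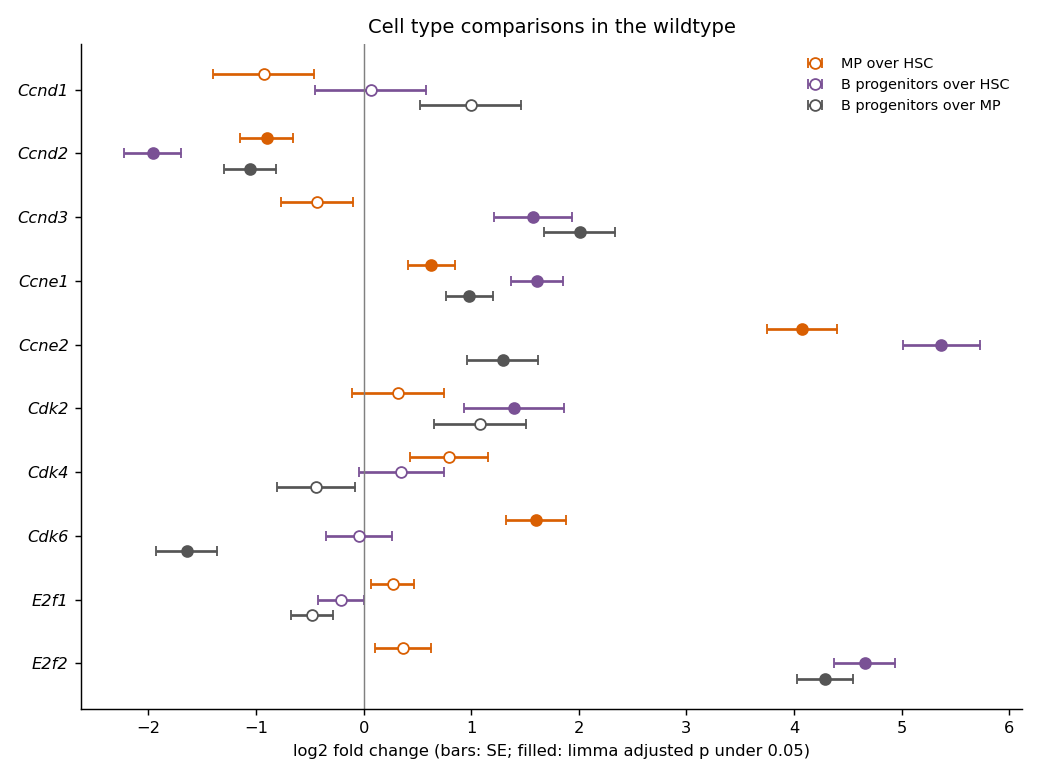
Log2 fold change (x axis) between cell populations for the 10 genes: wildtype MP over wildtype HSC, B progenitors over wildtype HSC, and B progenitors over wildtype MP; bars are SE and filled points passed a limma adjusted p under 0.05. Ccne2 lies right of 0 in all 3 comparisons, E2f2 is called in both B progenitor comparisons, and Cdk6 lies at 1.60 in MP over HSC and -1.65 in B progenitors over MP.

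In the order of group means of the representative probe sets, HSC of the wildtype were lowest for Ccne1 and Ccne2, with no overlap with the next group. They were highest for Ccnd2, again with no overlap. B progenitors were highest for Ccnd3, Ccne1, Ccne2 and E2f2 and lowest for Ccnd2 and E2f1, each time apart from the neighbouring group, and MP of both genotypes were highest for Cdk6. Hypomorph HSC were highest for Ccnd1 and E2f1 and stood apart from the next group in both, while for Cdk2 no neighbouring groups were apart. These orders are descriptions of 2 or 3 arrays a group, and further probe sets of some genes, among them Ccnd2 and Ccnd3, did not keep them.

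The rest of the pathway was read from 6 lists of genes, whose counts stand beside the shares of all genes called: 5.37% higher and 5.44% lower in hypomorph over wildtype HSC, 0.337% and 0.251% in hypomorph over wildtype MP, 13.8% and 18% in wildtype MP over wildtype HSC, and 11.2% and 24.7% in B progenitors over wildtype MP. For the 21 replication genes known as E2f targets, of which 20 were tested, 8 were called higher in hypomorph than in wildtype HSC and 0 lower (median log2 fold change 0.78, against -0.11 over all genes), 0 were called in MP (median -0.09), and 15 were higher in wildtype MP than in wildtype HSC and 0 lower (median 1.00). Cdc6, which loads the replicative helicase, averaged 9.74 ± 0.19 in hypomorph HSC and 7.40 ± 0.62 in wildtype HSC (SD, n = 3 and 2), or 2.34 higher (SE 0.26, limma adjusted p = 1.48e-04). Mcm4, a subunit of that helicase, averaged 11.36 ± 0.88 in hypomorph HSC and 8.72 ± 1.32 in wildtype HSC (2.64, SE 0.48, limma adjusted p = 0.00415). Both genes stood higher in wildtype MP than in wildtype HSC, Cdc6 by 2.60 and Mcm4 by 3.28. B progenitors over wildtype MP had 2 of the 20 higher and 2 lower (median 0.02), shares near and under those of all genes, 11.2% higher and 24.7% lower. Rrm2, a subunit of ribonucleotide reductase, was among the higher (1.89, SE 0.25, limma adjusted p = 3.68e-05) and Tk1, thymidine kinase, among the lower (-1.72, SE 0.31, 0.000539).

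Of 7 genes for cyclins of S and M phase and Cdk1, 4 were tested. Of these 2 were called higher in hypomorph than in wildtype HSC, 4 in wildtype MP over wildtype HSC and 3 in B progenitors over wildtype MP, with 0 lower in each and 0 called by genotype in MP. Ccna2, cyclin A2, averaged 9.63 ± 0.11 in hypomorph HSC and 8.20 ± 0.26 in wildtype HSC (log2 fold change 1.43, SE 0.20, limma adjusted p = 7.81e-04). Ccnb2, cyclin B2, averaged 9.52 ± 0.56 in hypomorph HSC and 8.38 ± 0.23 in wildtype HSC (1.15, SE 0.28, limma adjusted p = 0.0208), and was also higher in B progenitors than in wildtype MP (1.81, SE 0.28, 0.000187).

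Among 7 inhibitors of these kinases, the Cip/Kip and INK4 genes, 5 were tested, and Cdkn2a and Cdkn2b fell below the filter. In hypomorph over wildtype HSC 3 were called higher and 0 lower (median 1.04). They included Cdkn1b, p27, which averaged 7.83 ± 0.56 in hypomorph HSC and 6.19 ± 0.20 in wildtype HSC (log2 fold change 1.63, SE 0.31, limma adjusted p = 0.005), and Cdkn2c, p18, at 10.05 ± 0.22 in hypomorph HSC and 8.52 ± 0.78 in wildtype HSC (1.53, SE 0.30, 0.00693). Cdkn1c, p57, known for its part in stem cell quiescence, averaged 7.22 ± 0.62 in hypomorph HSC and 8.23 ± 0.46 in wildtype HSC and was not called (-1.01, SE 0.42, limma adjusted p = 0.147). Between populations the list split. Cdkn1c averaged 4.25 ± 0.53 in wildtype MP and 8.23 ± 0.46 in wildtype HSC (log2 fold change -3.98, SE 0.42, limma adjusted p = 1.60e-05), while Cdkn1b was higher (1.17, SE 0.31, 0.0108). All 5 tested inhibitors were called higher in B progenitors than in wildtype MP (median 2.00), where 11.2% of all genes were, among them Cdkn1c (2.26, limma adjusted p = 0.000842) and Cdkn2c (2.25, 5.02e-05).

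Of the 11 pocket proteins and further E2f and DP subunits, all tested, 2 were called higher in hypomorph than in wildtype HSC. These were the repressor members E2f8, at 10.45 ± 0.09 in hypomorph HSC and 8.44 ± 0.16 in wildtype HSC (log2 fold change 2.02, SE 0.23, limma adjusted p = 1.54e-04), and E2f7 (0.99, SE 0.23, 0.0157). In wildtype MP over wildtype HSC 5 were higher, led by E2f8 (2.52) and Tfdp1, the DNA-binding partner of E2f proteins (2.21, SE 0.37, limma adjusted p = 0.000539). In B progenitors over wildtype MP 3 were higher and 1 lower (11.2% and 24.7% of all genes), with Rb1, the retinoblastoma gene, at 11.02 ± 0.08 in B progenitors and 9.11 ± 0.22 in wildtype MP (1.91, SE 0.23, limma adjusted p = 1.57e-05).

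Of 12 genes for the activation and turnover of G1 kinases, 11 were tested, and 3 were higher and 0 lower in hypomorph than in wildtype HSC. Skp2, the ligase subunit that directs p27 to degradation, averaged 8.84 ± 0.35 in hypomorph HSC and 7.51 ± 0.69 in wildtype HSC (log2 fold change 1.34, SE 0.31, limma adjusted p = 0.0155), and its partner Cks1b gave 1.55 (SE 0.40, 0.0241). In wildtype MP over wildtype HSC 4 were higher and 0 lower. In B progenitors over wildtype MP 2 were higher and 1 lower, near and under the 11.2% and 24.7% of all genes. The lower one was Cdc37, a chaperone of Cdk4 and Cdk6 (-1.40, SE 0.33, limma adjusted p = 0.00418). Cdc25a stood both in this list and among the replication genes.

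The 10 upstream regulators of D-type cyclins, receptors and transcription factors, include lineage genes such as Il7r and Csf1r. Csf1r and Gfi1 also stood among the myeloid progenitor markers. Differences of this list between the lineages were thus partly set by the choice of genes. In B progenitors over wildtype MP 1 was called higher and 8 lower (median -1.93). Il7r, the interleukin 7 receptor of early lymphocytes, averaged 12.24 ± 0.10 in B progenitors and 5.32 ± 0.46 in wildtype MP (log2 fold change 6.91, SE 0.30, limma adjusted p = 5.43e-10), and Csf1r, the macrophage growth factor receptor, averaged 5.56 ± 0.56 in B progenitors and 12.12 ± 0.08 in wildtype MP (-6.56, SE 0.24, 1.29e-10). In hypomorph over wildtype HSC 0 of these 10 were called at an adjusted p under 0.05 in limma. The lowest p was that of Csf1r, -0.71 (SE 0.24, limma adjusted p = 0.0696). In hypomorph over wildtype MP 0 were called higher and 2 lower, against 0.337% and 0.251% of all genes.

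Several HSC effects were smaller without 1 array. Leaving out wildtype HSC replicate 2 left 1 wildtype HSC array. The log2 fold change was then 1.71 for Mcm4, 0.97 for Cdkn2c, 0.68 for Cks1b and 0.85 for Skp2. On all arrays these were 2.64, 1.53, 1.55 and 1.34. Calls of these genes and of Cdkn1b and Ccnb2 were lost, which the lower precision of 1 array can bring about without a smaller effect. With each of the 13 arrays left out in turn, 4 to 10 of the 20 replication genes, 1 to 3 of the 4 S and M phase genes and 0 to 3 of the 5 inhibitors were called higher or lower in hypomorph over wildtype HSC. Mast cell, erythroid and myeloid markers were also among the genes called higher in hypomorph HSC, as given above, and their part in these results was not tested.

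**Figure D5:**
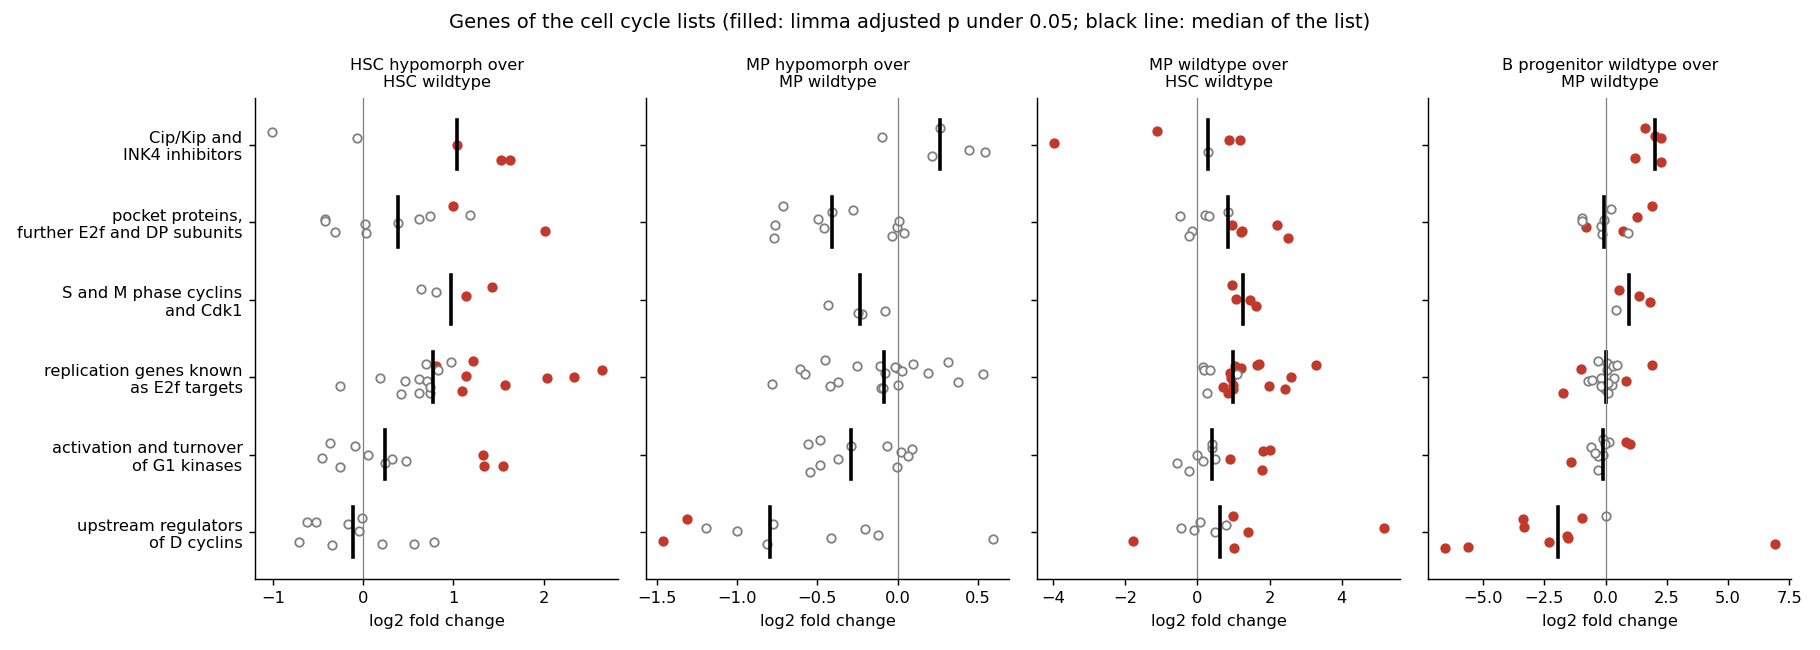
Log2 fold change (x axis) of every tested gene of the 6 pathway lists (rows) in 4 comparisons; each point is a gene, filled where its limma adjusted p lay under 0.05, and short lines are list medians. In hypomorph over wildtype HSC the replication genes have a median of 0.78 and the upstream regulators one of -0.11.

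For each of the 9 genes whose group means spanned at least 1, the 3 genes with the most similar values were found by the root mean square difference of log2 values, each gene centred on its own mean, over the 13 arrays. The closest were Lrr1 (0.471), Zfp62 (0.484) and Esco2 (0.486) for Ccne2, and Exosc9 (0.142), Brip1os (0.159) and Ncaph (0.173) for Ccne1. For E2f2 they were Mybpc2 (0.365), Stambpl1 (0.408) and Tmprss3 (0.411), and for Ccnd3 Csk (0.216), Rhoh (0.220) and Mindy2 (0.265). Ccnd1 had no gene nearer than Tex12, at 0.849, followed by Car3 (0.857) and Hao1 (0.917). Ccnd2 was closest to Kcnn4 (0.122), Cyb5r3 (0.136) and Emp3 (0.154), and Cdk6 to Trbv1 (0.262), Heatr1 (0.297) and Iars (0.300). Cdk2 was closest to Ppp4c (0.256) and E2f1 to Gmds (0.185). The 13 arrays form 5 groups, so they are not independent points.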

How the data were processed

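Total RNA of 35000 to 100000 sorted cells was hybridised to Affymetrix arrays, per the labels' protocols. The deposited values come from RMA, per the submitters' processing notes, and are read as log2 intensities, since they run between 1.93 and 14.99. The base is inferred, and no source used here names the RMA version. The table holds 24 columns, of which 13 are the normalization of all arrays used here and 11 a second normalization of the HSC and MP arrays, used as an alternative (same-label columns correlated at 0.999, other labels at most at 0.995). Columns left unused numbered 0. Arrays of the first normalization correlated at most at 0.996, so none was a copy.

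Of 45101 probe sets, 34958 carried a single symbol in the platform annotation, 932 several and 9211 none; current symbols, found through the Entrez number of 34754, differed for 0. The brightest probe set past the filter (2 arrays at the median or over) stood for its gene. No detection calls were available, so whether a dim signal lay above background is not known. limma 3.58.1 (R 4.3.3) fitted 5 group means with 8 residual degrees of freedom, and the adjustment ran over all 12765 genes, or over 22122 probe sets in the fit of every probe set. Intervals are 95%.

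Genes outside the 10 were named by rule in hypomorph over wildtype HSC, wildtype MP over wildtype HSC, and B progenitors over wildtype MP. They were up to 2 called genes of each pathway list with the largest changes, or, with none called, the gene of lowest p. The 10 genes and all lists were chosen with earlier results of these data known. Replicate numbers were not used to pair the arrays in the main model. Deviations from group means correlated between -0.31 and 0.30 over 23 same-numbered pairs, with 6 over 0.1. In a group of 2 arrays these deviations mirror each other, so the check cannot show whether the numbers mark pairs. The alternatives were the second normalization, a replicate block, only the arrays compared, array weights (gene by gene), a trended and robust prior, the filter left out or raised to the 75th percentile (7.10), averaged probe sets, every probe set, centring, and each array left out; their use on the list counts was added after the data were seen. Promoter windows and gene starts are those of RefSeq on GRCm38.p6.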

Additional observations from a re-analysis of the deposited data

Results flagged for a closer look

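The hypomorph effect in HSC differed from that in MP, by the interaction term of the limma model, for 720 of 12765 genes (5.64%), of which 417 had the higher effect in HSC. In the pathway lists it was called for 6 of 20 replication genes and 3 of 11 pocket protein, E2f and DP genes. It was also called for 2 of 11 genes of kinase activation and turnover and 1 of 4 S and M phase genes. Among the 5 tested inhibitors and the 10 upstream regulators of D-type cyclins 0 were called. Of the 10 genes followed here it was called for Ccne2. Values follow for Ccne2 and for the 6 pathway genes named above for their change in hypomorph HSC whose difference was called. Cdkn1b, Cdkn2c, Ccnb2 and Cks1b were named for the same change, and for them the difference was not called. Since the HSC change is part of the difference, the direction of the difference in the genes that follow was largely set by how they were named. Ccne2 had a log2 fold change of 3.76 in HSC and -0.54 in MP, a difference of 4.30 (limma adjusted p = 0.000323). Mcm4 had 2.64 in HSC and -0.08 in MP, a difference of 2.72 (limma adjusted p = 0.0291), and Cdc6 had 2.34 in HSC and -0.02 in MP, a difference of 2.36 (0.00283). The repressor E2f8 had 2.02 in HSC and 0.01 in MP, a difference of 2.01 (limma adjusted p = 0.00336), and E2f7 had 0.99 in HSC and -0.28 in MP, a difference of 1.27 (0.0319). Ccna2 had 1.43 in HSC and -0.22 in MP, a difference of 1.65 (limma adjusted p = 0.00513), and Skp2 had 1.34 in HSC and -0.29 in MP, a difference of 1.63 (0.0372). Dixon's outlier ratio was not applied to groups of 2 or 3 arrays.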

How the results depend on the processing

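Of the 10 genes, 5 were called in hypomorph over wildtype HSC. The second normalization, the replicate block, array weights, the trended and robust prior, the mean of probe sets and every probe set each left 3, and the model of the HSC arrays alone left 1; with an array left out 2 to 4 were called. In hypomorph over wildtype MP 1 was called, 4 with array weights and 0 to 1 with an array left out. For the difference of the effects 1 was called, 4 with array weights and 1 to 3 with an array left out. In hypomorph MP over hypomorph HSC 1 was called, 0 with the second normalization, the replicate block, no filter or every probe set, 6 with array weights and 0 to 3 with an array left out. Wildtype MP over HSC gave 3 to 4 called under other settings and 2 to 5 with an array left out (4 as reported), B progenitors over HSC 5 to 6 and 5 to 6 (6 as reported), and B progenitors over MP 6 to 7 and 5 to 7 (6 as reported). The replicate block moved the counts of the other comparisons by less than 1.5 times, and in the labels the arrays share only a number. The log2 fold change of Ccnd1 in B progenitors over wildtype HSC reversed to -1.02 when probe sets were averaged, because its probe sets differ in sign there.

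Over all genes, the count called in hypomorph over wildtype HSC was 1380, against 899 with the replicate block, 140 with the HSC arrays alone and 456 to 1800 with an array left out, lowest without wildtype HSC replicate 2. In MP it was 75, against 4270 with array weights, 164 with the MP arrays alone and 38 to 183 with an array left out. The difference of effects gave 720, against 376 with the block, 3263 with array weights and 242 to 1447 with an array left out. Hypomorph MP over hypomorph HSC gave 1487, against 4500 with array weights and 973 without hypomorph HSC replicate 2, and wildtype MP over HSC gave 4056, against 2547 without wildtype HSC replicate 2. The causes of these moves were not tested. Groups of 2 or 3 arrays and the dim signal of Ccne2 in wildtype HSC limit the precision. Leaving out an array of wildtype HSC or of B progenitors leaves that group without replication, so a lost call can then reflect lower precision alone.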
